A study of Salmo salar with 6 samples.

Results

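The transcripts described here come from 5 genes of innate immune sensing and signalling: irf7, dhx58, tlr9, ikbkb and card9. They were taken from the array by the RefSeq accession in the probe name, which gave 5 probes, 1 per gene with 1 spot per array, among 25460 genes with at least 1 probe. The genes fall into an interferon arm of 3 genes (irf7, dhx58 and tlr9) and an NF-kB arm of 2 genes (ikbkb and card9). RNA came from the head kidney of juvenile Atlantic salmon of 252 g fed for 133 days with a basal diet holding 0.1% of MPLE, an additive from sage and lemon verbena rich in triterpenes such as ursolic acid, or with the basal diet alone (control, 0%). RNA of 18 fish per diet was combined into 3 pools, and each pool was read on its own one-colour array. The series description is ambiguous on the fish per pool, which was taken as 6. The tanks behind each pool are not named, so tank and diet cannot be told apart.

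Foreign DNA and RNA inside a cell are met by dedicated sensors. Toll-like receptor 9 (tlr9) sits in endosomes and binds unmethylated CpG DNA, and LGP2 (dhx58) is a cytosolic RNA helicase of the RIG-I family that lacks the signalling domain of its relatives and tunes their output. Their signals reach interferon regulatory factors, of which irf7 is the main amplifier of type I interferon in mammals and is itself induced by interferon, as dhx58 is. In the NF-kB arm, ikbkb encodes the kinase that marks the inhibitor of NF-kB for destruction, and card9 is the adaptor of myeloid cells in mammals that links lectin receptors for fungi and bacteria to NF-kB through Bcl10 and Malt1. The head kidney is the main blood-forming organ of salmon and holds lymphoid and myeloid cells together with steroid-producing interrenal cells. Of the markers checked, hba, mpx, cd79b, star and hsd3b1 were well above background on all 6 arrays.

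Brightness differed between the arrays, and this touches every value below. The processed signal had a 75th percentile of 485 to 709 intensity units on MPLE arrays and 133 to 468 on control arrays, with control pool 3 the dimmest. Levels are therefore given as log2 of the signal relative to that percentile on the same array, and changes as MPLE minus control. Replicate spread was wider in the control group, with a median SD over probes of 0.21 for MPLE and 0.50 for control pools. Each array had a slide to itself. MPLE arrays all lay at position 1 and control arrays at position 2, and the scanner took all MPLE arrays after the control ones. None of slide, position and scan order can therefore be told apart from diet. Of the 10 spike-in probes, which read RNA added to each labelling reaction, E1A_r60_3 and E1A_r60_n9 differed most between the diets, by 2.91 and 2.15, and the other 8 by -0.49 to 0.71. In pooled tissue RNA, fewer cells of a type cannot be told apart from less RNA per cell.

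The 3 genes of the interferon arm had lower means in fish fed MPLE and the 2 genes of the NF-kB arm higher ones, but none of the 5 passed the adjusted threshold of 0.05 (limma, adjusted over 23130 probes). By that rule 0.467% of all probes were called, 0.0476% as lower and 0.419% as higher. At an unadjusted p under 0.05, 3 of the 5 were called, all lower, against 5.89% of all probes lower and 17.4% in either direction. The diets did not overlap for irf7 and tlr9, both lower, against 11.9% of all probes lower and 28.2% in either direction. The members had been picked with earlier results of these arrays known, so these counts are not evidence apart from those results.

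The interferon regulatory factor irf7 had the largest difference of the 5. Its levels were -1.95, -1.79 and -2.34 in MPLE pools 1, 2 and 3, against -0.55, -0.91 and -0.999 in control pools 1, 2 and 3. Every MPLE pool lay below every control pool, and the nearest pair was 0.79 apart. The mean was -2.03 ± 0.28 in MPLE pools and -0.82 ± 0.23 in control pools (SD, n = 3 each), which gave a change of -1.21 with a standard error of 0.27 and a limma adjusted p = 0.0998. On the linear scale the level was 2.31-fold lower with MPLE, and 10.3% of the probes tested had a larger absolute change. Leaving out each pool in turn kept the change between -1.33 and -1.05, without the dim control pool 3 at -1.30, so the difference was about as large without that array. In the deposited series values centred on the 75th percentile the change was -0.80 and the diets overlapped.

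The RNA helicase dhx58 showed a smaller difference in which the diets touched. Its levels were 0.32, 0.82 and 0.40 in MPLE pools 1, 2 and 3, against 1.64, 0.79 and 1.49 in control pools 1, 2 and 3. MPLE pool 2 lay 0.03 above control pool 2, and the other pools separated. The mean was 0.51 ± 0.27 in MPLE pools and 1.31 ± 0.45 in control pools (SD, n = 3 each), which gave a change of -0.79 with a standard error of 0.32 and a limma adjusted p = 0.265. With control pool 2 left out the change was -1.05, and with control pool 1 left out it was -0.63.

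The DNA receptor tlr9 was at -1.70, -1.03 and -1.18 in MPLE pools 1, 2 and 3, against -0.72, -0.72 and 0.09 in control pools 1, 2 and 3. All MPLE pools were below all control pools, with 0.31 between the nearest, and control pool 3 stood highest. The mean was -1.31 ± 0.35 in MPLE pools and -0.45 ± 0.46 in control pools (SD, n = 3 each), which gave a change of -0.85 with a standard error of 0.33 and a limma adjusted p = 0.257. Without control pool 3 the change was -0.59, and with median centring of the arrays the diets overlapped. B cells carry TLR9 in mammals. The levels of 7 B cell markers were summed on the linear scale, and so weighted toward the brightest probes. Their log2 sum was 5.81 to 6.25 in MPLE pools and 5.74 to 6.89 in control pools, with control pool 3 the highest. The brightest of the 7 in control pool 3 was btk at 6.32, while cd79b had its lowest level there, at 3.23. Of 8 B cell markers tested, 3 had positive and 5 negative changes. The part of B cells in the tlr9 difference was not tested.

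The kinase gene ikbkb stood highest relative to its array in MPLE pool 2, and its difference rested largely on 1 control array. Its levels were -1.48, -0.99 and -1.49 in MPLE pools 1, 2 and 3, against -1.41, -1.88 and -3.25 in control pools 1, 2 and 3. Control pool 1 lay within the MPLE range, and control pool 3 was far below the rest and was the 1 array on which the probe was not well above background. The mean was -1.32 ± 0.29 in MPLE pools and -2.18 ± 0.96 in control pools (SD, n = 3 each), which gave a change of 0.86 with a 95% interval from -0.28 to 2.00 and a limma adjusted p = 0.387. Without control pool 3 the change was 0.32. Because the probe entered the fit through the MPLE arrays, where it was well above background on 3 of 3 against 2 of 3 control arrays, its presence among the probes tested is no evidence of a difference.

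The adaptor card9 differed least on the scaled levels. They were -0.88, -0.60 and -0.78 in MPLE pools 1, 2 and 3, against -1.15, -1.60 and -0.84 in control pools 1, 2 and 3. Control pool 3 lay within the MPLE range, and the other control pools lay below it. The mean was -0.75 ± 0.14 in MPLE pools and -1.20 ± 0.38 in control pools (SD, n = 3 each), which gave a change of 0.45 with a 95% interval from -0.21 to 1.11 and a limma adjusted p = 0.423. Without control pool 2 it was 0.25, and without control pool 3 it was 0.62. Of all probes tested, 48.5% had a larger absolute change, so card9 lay in the middle of the array. The log2 of the summed levels of 10 neutrophil markers was 9.04 to 9.50 in MPLE pools and 8.77 to 9.40 in control pools. That of 6 macrophage markers was 7.50 to 7.78 in MPLE pools and 7.33 to 8.32 in control pools. Both sums are weighted toward the brightest probes. Neutrophil genes did not move one way, with csf3r, the receptor for the neutrophil growth factor G-CSF, at 1.14 and mpx, myeloperoxidase, at -0.92 without control pool 3, where its spot was an outlier. The part of these cells in the card9 difference was not tested.

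**Figure D1:**
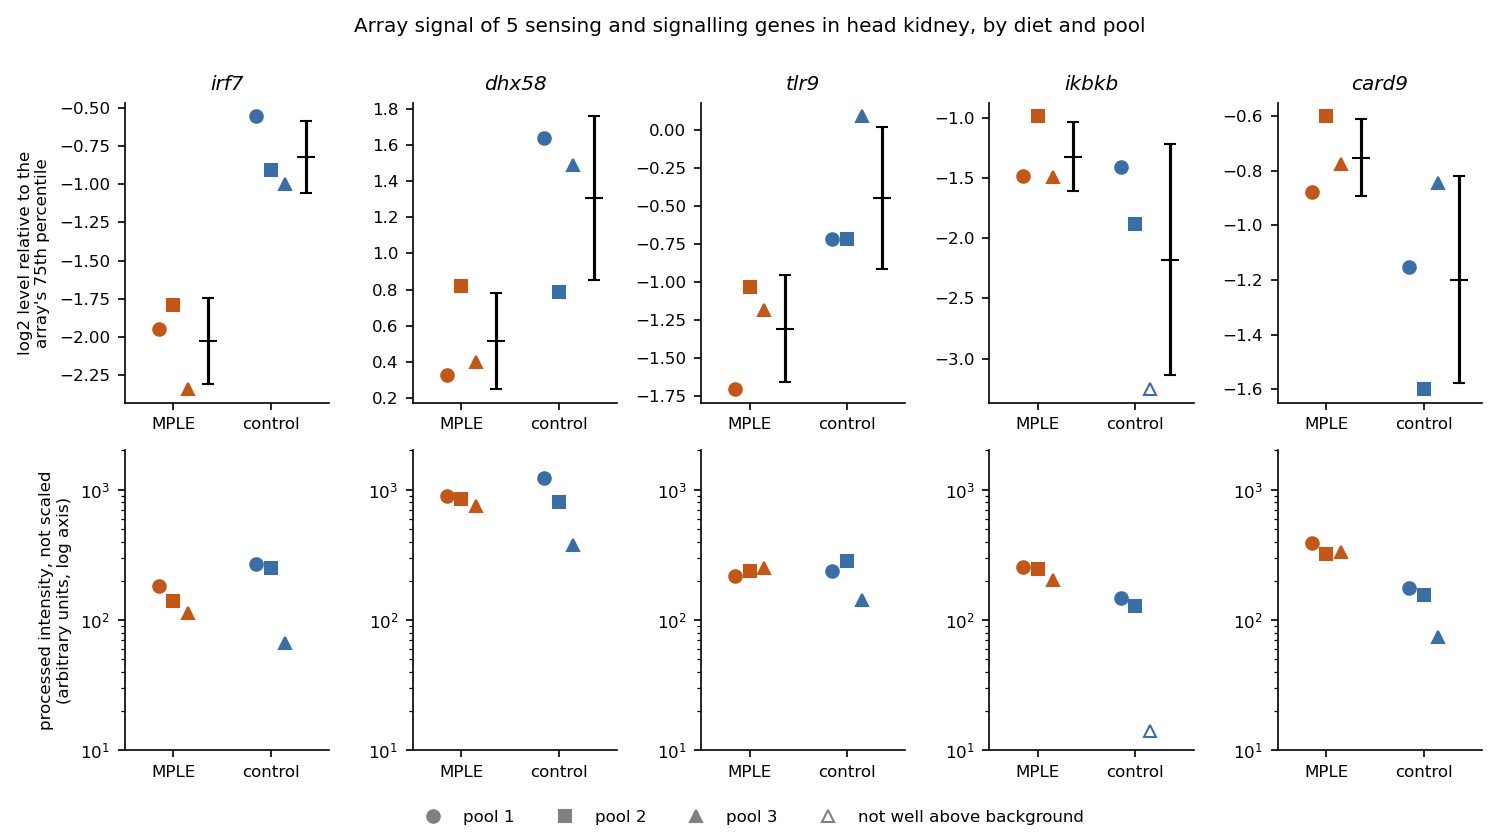
Signal of irf7, dhx58, tlr9, ikbkb and card9 in each pool, MPLE left and control right, with 1 symbol per pool. The upper row gives log2 levels relative to the array's 75th percentile, with mean ± SD of 3 pools in black, and the lower row gives the processed intensity before scaling on a log axis. The open triangle is ikbkb in control pool 3, not well above background, and the diets separate in the upper row for irf7 and tlr9 and in the lower row for ikbkb and card9.

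Before scaling between arrays the diets separated for 2 of the 5 genes, card9 and ikbkb, beside 57.1% of all probes tested. The processed intensity of card9 was 386, 319.6 and 333 in MPLE pools 1, 2 and 3, against 177, 154 and 74.3 in control pools 1, 2 and 3. That of ikbkb was 254, 245 and 203 in MPLE pools 1, 2 and 3, against 149, 127 and 14.0 in control pools 1, 2 and 3. In control pool 3 the ikbkb probe was not well above background. Every MPLE pool exceeded every control pool for these 2 genes, as for 56.7% of all probes tested, while 0.428% were lower in every MPLE pool and 57.1% separated either way. For irf7 the intensity was 184, 140.0 and 112 in MPLE pools 1, 2 and 3, against 268, 249.8 and 66.7 in control pools 1, 2 and 3. Here the MPLE pools lay below control pools 1 and 2 and above control pool 3, although the MPLE arrays were the brighter ones. The intensity of dhx58 was 888, 855 and 751 in MPLE pools 1, 2 and 3, against 1225, 808 and 375 in control pools 1, 2 and 3. That of tlr9 was 218, 237 and 251 in MPLE pools 1, 2 and 3, against 239, 285 and 142 in control pools 1, 2 and 3, so both genes overlapped between the diets. In the deposited series values, which are not scaled either, the change was 0.034 for irf7, 0.30 for dhx58 and -0.09 for tlr9, against 2.27 for ikbkb and 2.01 for card9, where the median of all probes was 1.05. Relative to that median the interferon arm was lower and the NF-kB arm higher there too.

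The contrast between the arms does not depend on any scaling that moves a whole array, since it is a ratio of probes on the same array. The size of such a ratio also reflects how strongly each probe binds, so only its difference between the diets is read. For irf7 over card9 the ratio was 0.475, 0.438 and 0.337 in MPLE pools 1, 2 and 3, against 1.51, 1.62 and 0.898 in control pools 1, 2 and 3. The highest MPLE ratio lay below the lowest control ratio, that of control pool 3. For dhx58 over card9 the ratio was 2.30, 2.68 and 2.26 in MPLE pools 1, 2 and 3, against 6.91, 5.23 and 5.05 in control pools 1, 2 and 3. For tlr9 over card9 it was 0.564, 0.742 and 0.754 in MPLE pools 1, 2 and 3, against 1.35, 1.84 and 1.91 in control pools 1, 2 and 3. Both ratios were lower in all MPLE pools than in all control pools, and control pool 3 lay close to control pool 2.

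The 3 ratios over card9, whose probe was well above background on all arrays, did not overlap between the diets, with log2 changes of -1.66 for irf7, -1.24 for dhx58 and -1.30 for tlr9. The 3 ratios over ikbkb did not overlap either, but their changes, from -2.07 to -1.65, use control pool 3, where ikbkb was not well above background, and are not exact there. The 6 ratios already separated with control pool 3, and leaving a pool out cannot create overlap, so that setting is no check of them. The ratios share their genes and are not independent, and over all pairs of probes with a value on every array, 32.5% did not overlap. Of the 4 ratios within an arm, 0 separated the diets, with changes from -0.42 (irf7 over dhx58) to 0.41 (ikbkb over card9). The arms were set with earlier results of these arrays known, so this split is no evidence apart from those results. The share of 32.5% is over pairs that were not picked in this way and is not a matched share.

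Averaged over each arm, after every gene was centred on its own mean over the 6 arrays, the interferon arm was at -0.48 ± 0.24 in MPLE pools and 0.48 ± 0.25 in control pools (SD, n = 3 each). The NF-kB arm was at 0.33 ± 0.21 in MPLE pools and -0.33 ± 0.39 in control pools (SD, n = 3 each). Interferon minus NF-kB was -0.83, -0.77 and -0.81 in MPLE pools 1, 2 and 3, against 0.50, 0.56 and 1.34 in control pools 1, 2 and 3. The MPLE pools agreed within 0.03 (SD) while control pool 3 stood above the other control pools, and the gap differed by -1.60 between the diets. It was -1.33 without control pool 3. With card9 alone as the NF-kB arm the gap was -0.74, -0.58 and -0.78 in MPLE pools 1, 2 and 3, against 0.76, 0.81 and 0.53 in control pools 1, 2 and 3, a difference of -1.40. No test is given for this difference, because the arms were set with earlier results known.

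**Figure D2:**
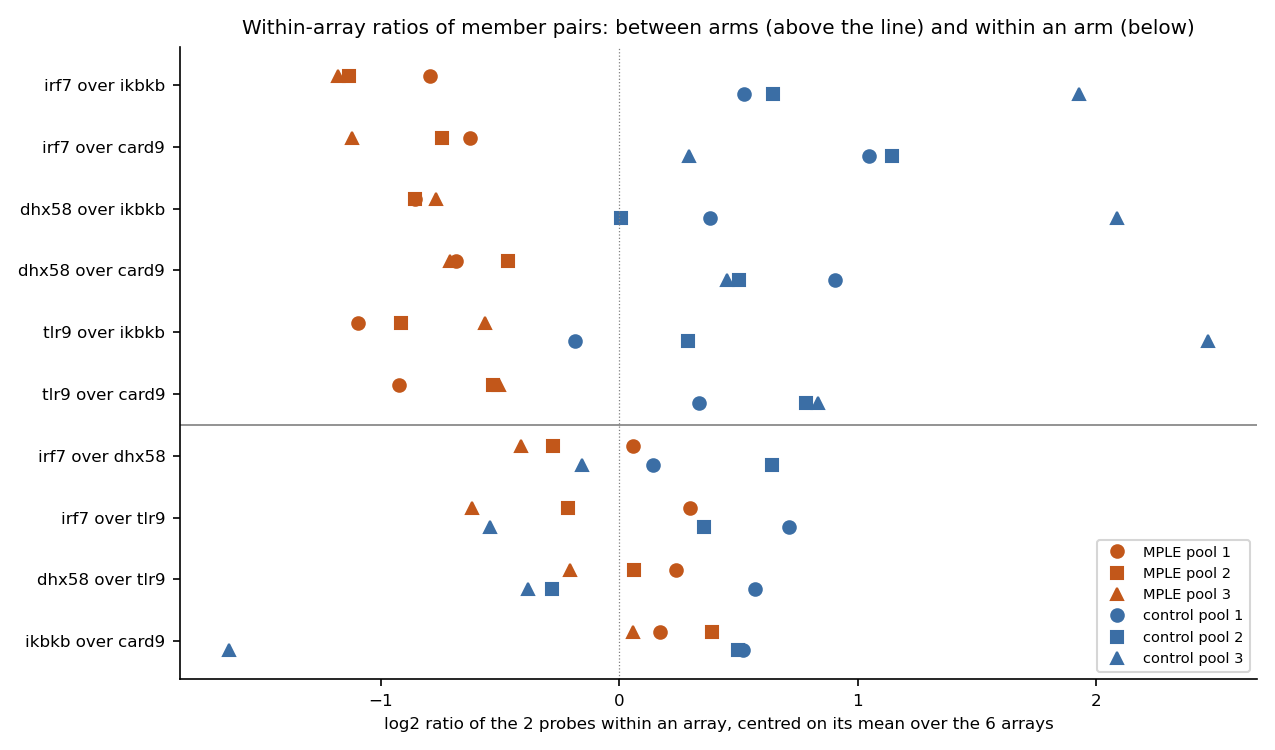
Log2 ratio of a pair of member probes on the same array, centred on its mean over the 6 arrays, for each pool, MPLE drawn above control in each row. The 6 ratios between arms, above the line, separate the MPLE pools (left) from the control pools (right), and the 4 ratios within an arm, below it, overlap, with control pool 3 standing apart for ikbkb over card9. The arms were set with earlier results known.

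Of the 5 genes, ikbkb moved most with background correction and with array weights. After normexp correction of the spot and background signals, a model-based subtraction, irf7 was at -0.91, dhx58 at -0.60 and tlr9 at -0.96, and ikbkb was at 0.18 and card9 at 0.36. The gap between the arms was then -1.10. Centring on the spike-in probes moved every gene down, to -1.65 for irf7, -1.23 for dhx58 and -1.30 for tlr9, and to 0.42 for ikbkb and 0.0064 for card9. This shift rests largely on E1A_r60_3 and E1A_r60_n9, which differed by 2.91 and 2.15, against -0.49 to 0.71 for the other spike-in probes. With array weights, which gave control pool 3 a weight of 0.128 and MPLE pool 3 a weight of 12.3, irf7 and dhx58 passed, with log2 changes of -1.64 and -1.07 and limma adjusted p = 0.00829 and 0.0266, tlr9 was at -0.52 and ikbkb at 0.14. That setting called 2971 of 23130 probes, 2030 higher and 941 lower. With these weights the gap between the arms was -1.36.

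**Figure D3:**
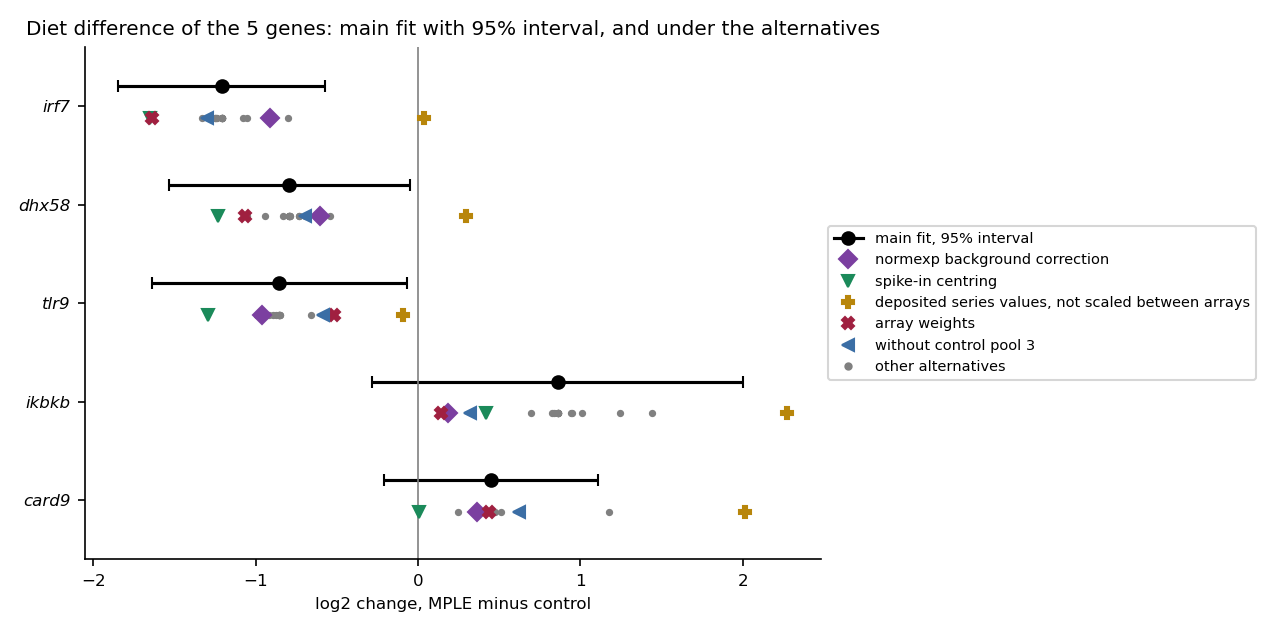
Log2 change of each gene, MPLE minus control, with the 95% interval of the limma fit (black, upper) and its value under each alternative (coloured and grey, lower). The interferon arm lies left of 0 except for irf7 and dhx58 in the unscaled series values, and the intervals of ikbkb and card9 include 0.

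The rest of the pathway was read from lists matched by symbol, at 1 probe per gene, and no gene of these lists passed the adjusted threshold, against 0.303% of the 15507 genes tested, 0.0322% lower and 0.271% higher. Apart from tlr9 and dhx58, the nucleic acid sensors and adaptors had 6 of 8 genes with a negative change and a median of -0.29, against -0.02 over all genes tested. All 8 were well above background on all 6 arrays, and the median over all such probes was -0.13. At unadjusted p under 0.05, 0 of these 8 were lower and 1 was higher, against 4.78% lower and 10.5% higher over all genes. With tlr9 and dhx58 the median of the list was -0.42. It was -0.16 without control pool 3 and -0.14 after normexp correction, which was 0.07 above the median of all probes. The cytosolic RNA sensor rigi was at -0.66, and the helicase dhx9, with no value in control pool 3, at -0.51. The gene called at unadjusted p as higher was a locus with the synonym hmgb1 (LOC100194543), a DNA-binding protein of the nucleus, at 0.998 with a limma adjusted p = 0.144. A second locus with that synonym (LOC100286669) was at -0.62, and at -0.18 without control pool 3. The endosomal receptor tlr21, a sensor of CpG DNA in birds and fish, was at -0.26, and at -0.04 without that pool.

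Among interferon signalling genes and regulatory factors other than irf7, 6 of 10 were negative with a median of -0.27, and 0 were called at unadjusted p in either direction. All 10 were well above background on all 6 arrays, and the median over all such probes was -0.13. With irf7 the median was -0.31. It was -0.12 without control pool 3 and -0.19 after normexp correction, which was 0.02 above the median of all probes. Without overlap between the diets were 3 of the 10, all lower, against 11% of all genes lower and 27% either way. They were the kinase jak2b at -0.67, irf9 of the interferon-activated transcription complex at -0.70, and the adaptor traf3 at -0.31. For irf9 the nearest pools, MPLE pool 2 at 2.43 and control pool 2 at 2.44, all but met, and its change was -0.22 without control pool 3. That of jak2b was -0.41 without control pool 3. The partner of irf9, stat2, was at -0.35, and irf3, the constitutive relative of irf7, at 0.22 and at 0.02 without control pool 3.

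The interferon-stimulated genes, a list that holds none of the 5, had 15 of 23 negative and a median of -0.30. None was called at unadjusted p in either direction. The diets did not overlap for 2 lower genes (ifit8 and dtx3l), against 11% of all genes, and 3 higher ones (eif2ak2, parp12b and LOC100329141), against 16% of all genes. LOC100329141, with the synonym b2m, had no value in MPLE pool 2 and control pool 3, so its lack of overlap rests on fewer pools. A second locus with that synonym (LOC100136933) was at 0.02 and overlapped between the diets. The smallest p values belonged to epsti1 at -0.72, the tetratricopeptide protein gene ifit8 at -0.78 and the helicase cofactor helz2a at -0.87. The classical effectors mx and isg15 were at -0.55 and -0.21 and viperin, rsad2, at -0.61. The mx level was 1.67 ± 0.33 in MPLE pools and 2.22 ± 1.26 in control pools (SD, n = 3 each), so the control pools spread more than the diets differed. Without control pool 3 the change of mx was 0.09 and the list median -0.05. After normexp correction the list median was -0.13, which was 0.08 above that of all probes.

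On the way from Toll-like receptors to NF-kB, 7 of 11 genes were negative with a median of -0.29. It was -0.18 without control pool 1 and -0.46 without control pool 2. After normexp correction the list median was -0.28. Relative to the median of all probes that was -0.07, against -0.28 in the main fit. At unadjusted p 3 were lower, against 4.78% of all genes: ube2n at -1.02 (limma adjusted p = 0.131) and ube2v1 at -0.82, the paired ubiquitin-conjugating proteins that build the chains used by TRAF6, and tab3 at -0.62, which binds those chains. Without control pool 3, ube2v1 was at -0.51. Without overlap between the diets were 4 lower genes, these 3 and traf2b at -0.41, against 11% of all genes, and 2 higher ones, ecsit at 0.49 and the kinase irak4 at 0.17, against 16% of all genes. The shared adaptor myd88 was at -0.17.

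Around ikbkb, 8 of the other 12 IkB kinase, NF-kB and inhibitor genes were negative with a median of -0.04. With ikbkb the median was -0.03, and its sign turned to 0.08 without control pool 3 and 0.18 after normexp correction. The latter was 0.39 above the median of all probes. Of the 11 genes well above background on all arrays, 1 was higher at unadjusted p, tnfaip2b at 1.096, against 10.5% of all genes. In a fit to such probes alone, 1472 of 16868 were higher at unadjusted p. Without control pool 3 tnfaip2b was at 0.60. The deubiquitinase A20, tnfaip3, which ends NF-kB signalling and is itself an NF-kB target in mammals, was at 1.44 (limma adjusted p = 0.127). Its probe was well above background on 2 of 3 control arrays and entered the fit through the MPLE arrays, where it was high, and after normexp correction it was at 0.44. The NF-kB repressing factor nkrf was at -0.46, the subunit nfkb2 at -0.03 and the inhibitor nfkbiab at 0.21.

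Apart from card9, 3 of 6 genes of its module were positive with a median of 0.04 and 0 were called at unadjusted p. With card9 the median was 0.16. It was 0.05 without control pool 1, 0.32 without control pool 3 and -0.28 with spike-in centring, which was 0.18 above the median of all probes. The phospholipase plcg2 was at 0.88, and at 0.37 without control pool 3. Its relative plcg1 was at 0.38, prkcda at -0.23, the kinase syk at 0.16 and bcl10, the direct partner of card9, at -0.09.

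The NF-kB target cytokines and survival genes, which also hold none of the 5, had 9 of 11 positive and a median of 0.72. Of the 8 well above background on all arrays, 7 were positive with a median of 0.70, and 2 were higher at unadjusted p, against 10.5% of all genes. In a fit to such probes alone, 1472 of 16868 were higher at unadjusted p. The 2 were the cytokine il6 at 1.34 (limma adjusted p = 0.187) and the early response gene ier3 at 0.85. The adhesion molecule vcam1b was at 0.72, on a probe well above background on 1 of 3 control arrays that entered the fit through the MPLE arrays, and at -0.35 after normexp correction. The level of il6 was -0.36 ± 0.48 in MPLE pools and -1.71 ± 0.69 in control pools (SD, n = 3 each). It was higher in each MPLE pool than in each control pool, as for 16% of all genes. The nearest were MPLE pool 1 at -0.91 and control pool 1 at -1.04. The change of il6 was 0.48 after normexp correction and 0.98 without control pool 3. The metalloproteinase mmp9 was at 0.03 and junb at -0.79. The median of the list was 0.39 without control pool 3 and 0.21 with array weights. After normexp correction it was 0.04, which was 0.25 above the median of all probes. Values of il6, tnfaip3 and others were known from earlier results of these arrays when the lists were drawn up, so the lists are not independent of them.

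**Figure D4:**
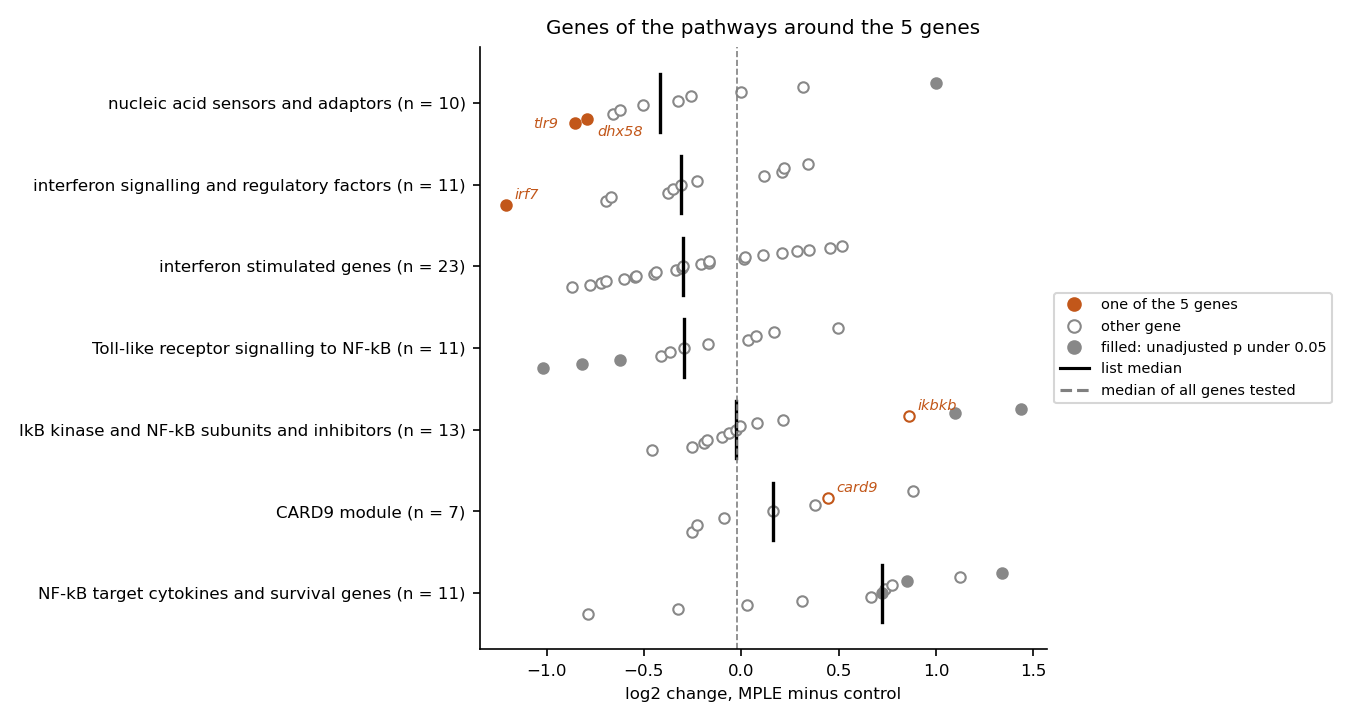
Log2 change, MPLE minus control, of each gene in 7 lists around the 5 genes, with filled points at unadjusted p under 0.05, the list median as a black bar and the median of all genes tested as a dashed line. The 3 interferon arm genes lie at the low end of their lists, ikbkb and card9 toward the high end, and the NF-kB target list has the highest median, 0.72.

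Some markers of other cells were called at unadjusted p as well, but none passed the adjusted threshold. Their part in the differences of the 5 genes was not tested. Over all genes tested, 4.78% were lower and 10.5% higher at unadjusted p under 0.05. Of 6 skeletal muscle genes 5 were lower at unadjusted p. The log2 of the summed levels of the 6 was 2.02 to 3.15 in MPLE pools and 3.65 to 5.63 in control pools. Of 8 kidney tubule genes with a probe 2 were tested, cdh16 and slc22a6l, and both were lower. The slc22a6l probe was well above background on 2 of 3 MPLE arrays and entered the fit through the control arrays, where it was high. Liver genes had 7 of 7 negative changes and a median of -1.58, but 0 of them separated the diets, against 11% of all genes lower. Their summed levels overlapped as log2, at 4.76 to 5.34 in MPLE pools and 5.28 to 6.16 in control pools. At unadjusted p 2 of the 7 were lower. The probes of hpxa and fgg, not among those 2, were well above background on 2 of 3 MPLE arrays. They too entered the fit through the control arrays. Of 11 T and NK cell markers 6 had positive and 5 negative changes. At unadjusted p 4 were higher, with eomes at 1.04 (well above background on 2 of 3 control arrays), cd8a at 0.73 and the loci of lck and cd4 at 0.66 and 0.59. The eomes probe entered the fit through the MPLE arrays, where it was high. The 1 marker lower at unadjusted p was gata1, which entered through its synonym gata3. The summed level of the 11 markers was 4.67 to 4.89 in MPLE pools and 4.67 to 5.33 in control pools as log2. The brightest of the 11 was a locus with the synonym cd3z, with a change of -0.38. Of 6 erythroid markers 4 had positive and 2 negative changes, with a median of 0.07. The globin hba was at 1.27 and a locus with the synonym hbb at 1.46, both without MPLE pool 2, where their spots were outliers. These 2 erythroid markers were higher at unadjusted p, and gata1, which is on this list too, was lower at -0.61. Of 3 dendritic cell markers batf3 was higher at unadjusted p, at 1.43, on a probe well above background on 0 of 3 control arrays. That probe too entered the fit through the MPLE arrays, where it was high. The 3 plasma cell markers, of which irf4l is itself a regulatory factor, summed to 4.74 to 5.09 in MPLE pools and 4.79 to 6.31 in control pools as log2. The brightest of the 3 was xbp1, at 6.10 in control pool 3, and all such sums are weighted toward the brightest probes.

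Finally, named genes with the most similar pattern over the 6 arrays were sought among those well above background on every array, by the root mean square difference of centred log2 levels. For irf7, whose own spread by this measure was 0.64, the nearest of 4445 genes were mkk6c, a MAP kinase kinase, at 0.14, rab3gap1 at 0.18 and adkb, an adenosine kinase, at 0.24. For dhx58 they were the splicing factor prpf4 at 0.08, the matrix proteoglycan lum at 0.11 and pp2bc at 0.11, and for tlr9 the amino acid transporter slc38a5b at 0.09, zfn2b at 0.09 and the transcription factor foxp4 at 0.10. For ikbkb the nearest were mex3c, an RNA-binding ubiquitin ligase, at 0.11, aedo at 0.12 and znf277 at 0.13, and for card9 the ribosomal protein gene rpl4 at 0.05, ppib, a cyclophilin of the endoplasmic reticulum, at 0.05 and anapc13, a subunit of the anaphase-promoting complex, at 0.06. None of these neighbours is on the interferon or NF-kB lists, but those lists hold few of the genes searched, so little can be read from this. The gene irf7 lay farther from its nearest gene than any of the other 4 members did.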

How the data were processed

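Cy3-labelled RNA of 6 pools was hybridised to one-colour Agilent arrays of design 084881 and read with Feature Extraction 10.7.3.1 (GE1_107_Sep09), per the file headers, which gives per spot an intensity after background subtraction and detrending, with no scaling between arrays. Log2 values deposited by the authors equal log2 of the background-subtracted intensity within 5e-09 and are likewise unscaled. Here log2 processed intensities were scaled to each array's 75th percentile over 42438 non-control spots without outlier spots (6 to 205 per array), which were left out. No spot was saturated (0). Tested were 23130 probes that all arrays of 1 diet or both showed well above background, with values from 2 or more pools per diet. The fit was limma 3.58.1 (R 4.3.3) on diet only, and two-sided p-values were adjusted by Benjamini-Hochberg. Intervals have 95% confidence. The number of arrays limits the precision.

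Probe accessions were matched without versions to RefSeq genes of assembly Ssal_v3.1, giving 25641 of 42386 probes a gene. No source used here names the array's build, and coordinates and sequences are not used here. The 5 genes and all lists were chosen with earlier results of these data known. Named from each list were the 3 genes other than the 5 with the smallest p, and 3 nearest profiles per gene. Others (tlr21, LOC100286669, traf3, irf3, dtx3l, eif2ak2, parp12b, LOC100329141, LOC100136933, mx, isg15, rsad2, myd88, irak4, nfkb2, nfkbiab, syk, bcl10, mmp9, junb, csf3r, mpx, cdh16, slc22a6l, hpxa, fgg, traf2b, ecsit, eomes, cd8a, lck, cd4, cd3z, gata1, hbb, batf3, irf4l, xbp1, hba, btk, cd79b, star, hsd3b1) were named after their values were seen. List counts without the 5 genes, or without probes dim on any array, were added after the data were seen.

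Pool numbers were checked for pairing: deviations from the diet means of pools with the same number correlated at -0.18, -0.34 and 0.08. This gave no sign of pairing, but deviations from a mean of 3 pools are tied to each other and cannot exclude it. On simulated data from 22720 probes with 200 changed probes in the diet comparison, 0% of log2 changes of 1 were called, 37% of 2 and 73% of 3.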

Additional observations from a re-analysis of the deposited data

How the results depend on the processing

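Log2 changes of the 5 genes were recomputed under 20 alternatives, or 19 for ikbkb, which does not pass the filter to probes well above background on all 6 arrays. The change of irf7 ran from -1.65 to 0.034, of dhx58 from -1.23 to 0.30, of tlr9 from -1.30 to -0.09, of ikbkb from 0.14 to 2.27 and of card9 from 0.0064 to 2.01. Direction turned in the unscaled series values, to 0.034 for irf7 and 0.30 for dhx58, where no array scaling is applied. Calls were gained with array weights, for irf7 (-1.64) and dhx58 (-1.07), a setting that called 941 of 23130 probes lower and 2030 higher. The other alternatives kept direction and side of the threshold for all 5. Leaving out 1 pool gave -1.33 to -1.05 for irf7, -1.05 to -0.63 for dhx58, -0.99 to -0.59 for tlr9, 0.32 to 1.25 for ikbkb and 0.25 to 0.62 for card9. The gap between the arms, -1.60, was -1.10 after normexp correction, -2.06 in the series values, -1.36 with array weights and -1.76 to -1.33 with 1 pool left out. With card9 alone as the NF-kB arm, chosen after seeing the data, it was -1.40. Of its 20 alternatives 8 leave the gap as it is by construction, and in the other 12 the diets did not overlap. Leaving out 1 pool cannot create overlap, array weights change no pool's level, and both forms of the series values give the same gap. Overlap could therefore have appeared only with normexp correction, quantile normalization, the series values or card9 alone. Overlap of single genes moved with the setting: irf7 overlapped in both forms of the series values, tlr9 in the unscaled series values and with median centring, dhx58 and card9 in 13 of 20 alternatives each and ikbkb in 16 of 19. These include the 75th percentile taken over all spots, also chosen after seeing the data.

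The 108 probes called by limma (97 higher, 11 lower) became 28 after normexp correction, 24 with quantile normalization, 537 with median centring, 14 with spike-in centring, 9 in the series values centred on the 75th percentile and 2971 with array weights. They were 0 without the filter (2350 higher and 1757 lower at unadjusted p), 0 in the unscaled series values (3790 and 51), and 0 to 164 with 1 pool left out, with 0 without each MPLE pool (1536 to 1958 higher and 559 to 772 lower at unadjusted p), 5 without control pool 1 and 164 without control pool 2. Of the calls at unadjusted p, 66.1% were higher, against 39.1% after normexp correction, 11.3% with spike-in centring, 50.5% with the filter requiring all 6 arrays, 53.7% with array weights, 83.3% and 98.7% in the series values with and without centring. With the pool number as a replicate block, 475 probes were called and no member, with irf7 at adjusted p = 0.161 by limma, and no pool correlated best with the pool of its own number.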
